A study of Mus musculus with 53 samples.

Results

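The cells compared here were 2 mouse synovial sarcoma cell lines, SS40 and SS64, and embryonic mesenchymal cells (eMCs) that carried an empty retrovirus, all grown in culture. The arrays were chosen by their labels, as those titled SS40 NC, SS64 NC and eMC empty retrovirus, with 4 arrays in each group, and they make 12 of the 53 arrays of the series. SS40 and SS64 are labelled mouse synovial sarcoma cells #40 and #64 and were kept in DMEM with 10% serum. NC is not spelled out in the labels and marks the arrays of each line without *miR-214*. The study models synovial sarcoma by introducing the human fusion gene *SS18-SSX1* into eMCs and transplanting them into nude mice, but how these 2 lines were established is not given in the sources used here. The eMCs were primary mesenchymal cells from the limb soft parts of late-gestation BALB/c embryos. They were collected 48 h after transduction with pMYs-IRES-GFP, a retrovirus without the fusion gene, and were kept in Iscove's modified DMEM with 15% serum. Each sarcoma group is 1 line, and nothing says that the 4 arrays of a group came from separate cultures or embryos, so a p-value reflects the spread among these arrays and no more. The line, the fusion gene, the medium, the serum, any control transfection and the time in culture cannot be told apart in this comparison.

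Synovial sarcoma is a soft tissue tumor defined by fusion of SS18, a subunit of the SWI/SNF (BAF) chromatin remodelling complex, to an SSX protein, and the fusion is known to alter the balance between that complex and polycomb repression. Limb mesenchyme gives rise to cartilage, bone, tendon and connective tissue, and a culture of dissociated limb soft parts can hold several of these lineages beside blood cells and muscle precursors. The comparison shows which genes set established sarcoma cells of this model apart from uncloned cells of the kind the model starts from.

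Each array gave a deposited intensity for 45141 probe sets of a mouse GeneChip. Intensities under 11.7 were raised to that floor, which is 3.55 on the log2 scale, and levels are given below as log2 intensities, and differences as log2 differences, line minus eMC, with their standard error (SE) from limma. A gene was read from its brightest probe set and called in a line at an adjusted p under 0.05 with a fold change over 2, and it was counted only where both lines were called in the same direction. Both lines are set against the same 4 eMC arrays, so the 2 comparisons are not independent of each other.

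The labels were checked against markers of mesenchymal cells. *Vim*, which encodes the intermediate filament vimentin, was near the top of the scale in all 3 groups, at 12.64 to 12.71 in SS40, 12.78 to 12.96 in SS64 and 12.79 to 12.83 in eMCs. *Prrx1*, a limb mesenchyme factor, had a log2 level of 10.81 to 10.95 in SS40, 8.67 to 8.73 in SS64 and 10.69 to 10.75 in eMCs. The fibrillar collagen genes *Col3a1* and *Col1a1* read 10.19 to 10.45 in SS40, 11.46 to 11.50 in SS64 and 12.09 to 12.15 in eMCs, and 7.99 to 8.81 in SS40, 8.90 to 9.24 in SS64 and 9.20 to 9.71 in eMCs. The PDGF receptor gene *Pdgfra* read 7.97 to 8.10 in SS40, 5.60 to 5.74 in SS64 and 7.12 to 7.43 in eMCs, and *Pdgfrb*, lower in both lines, read 6.08 to 6.52 in SS40, 6.41 to 6.65 in SS64 and 7.63 to 7.86 in eMCs. The calls of *Col1a1* in SS40 and *Pdgfrb* in SS64 were lost against eMCs with *SS18-SSX1* in place of the empty vector, at -0.85 and -0.86. The probe set of *Col1a2*, another fibrillar collagen gene, was close to the floor in every group, the eMCs included, at 3.55 to 3.55 in SS40, 3.97 to 4.33 in SS64 and 3.59 to 3.88 in eMCs. The probe set of *Ss18* did not pass the filter and the human *SSX1* sequence has no probe set among the named ones, so the fusion itself was not measured.

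The arrays were alike in brightness, with medians of 23.6 to 24.2 in SS40, 23.4 to 23.6 in SS64 and 24.3 to 24.5 in eMCs, and the median log2 difference over all genes was 0.04 in each line. The log2 ratio of 3′ to 5′ signal of *Gapdh*, a measure of RNA integrity, averaged -0.05 in SS40, -0.18 in SS64 and 0.01 in eMCs (n = 4 each, exact two-sided permutation p = 0.571 and 0.0286 for the lines against eMCs, the second being the smallest this design can give). The same ratio of *Actb* averaged 0.34 in SS40, 0.14 in SS64 and 0.41 in eMCs (exact two-sided permutation p = 0.714 and 0.0286). Replicate 2 of SS40 stood apart from the other arrays of its group, with an *Actb* ratio of 0.813. Without it, 420 genes were higher and 831 lower in both lines, against 421 and 832 with it. The part of RNA integrity in the differences below was not tested.

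Of 15785 genes tested, 421 were higher in both lines than in eMCs and 832 were lower (percent called 2.67 and 5.27), 1253 in all (7.94%). In SS40 alone, 1353 genes were higher and 1313 lower (8.57 and 8.32%), and in SS64, 1143 were higher and 1327 lower (7.24 and 8.41%). Another 139 genes (0.881%) were called in opposite directions in the 2 lines, and 2352 (14.9%) in 1 line only. The counts of each gene list below are to be read next to these shares of all genes. The falls were larger than the rises. Beyond 4-fold in both lines, 36 genes were higher and 373 lower, and beyond 16-fold, 4 were higher and 96 lower. No gene was over 32-fold higher in both lines, whereas 50 were over 32-fold lower and 23 over 64-fold lower. In 258 of the 832 lower genes both lines lay within 1 log2 unit of the floor, so that their fold changes are lower limits. Of the 832, 34 were above the floor on fewer than 4 of the 8 line arrays and passed the filter on low values only with the help of the eMCs, so that they had to differ once they were tested. All but 1 of the genes in each direction, 420 higher and 831 lower (2.66 and 5.26%), showed no overlap between the 8 line arrays and the 4 eMC arrays. Of the genes named in the text, 130 were called in both lines in the same direction, with adjusted p of 1.93e-05 or less in both lines (limma). In none of them did the line arrays overlap the eMC arrays. The 15 largest rises and 15 largest falls were taken only from genes without overlap, so for these it was fixed by the choice. Of these 130 genes, 57 had more than 1 probe set tested, and in 30 of the 57 at least 1 probe set was not called in the same direction in both lines.

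**Figure D1:**
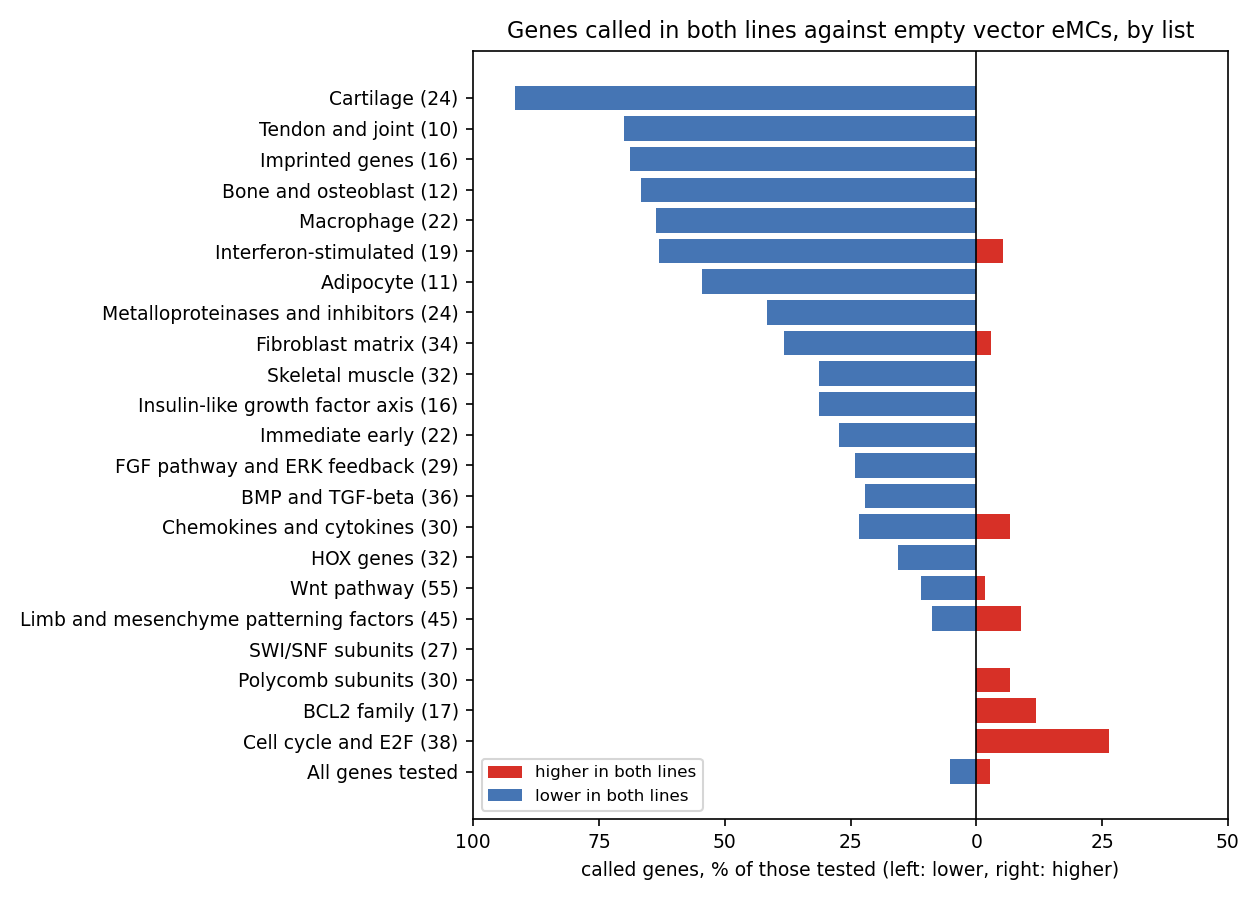
Share of the tested genes of 22 of the 50 gene lists that were higher or lower in both sarcoma lines than in empty vector eMCs (horizontal axis, percent of genes tested), with all 15785 genes for comparison. Cartilage genes had 22 falls among 24 genes, and the cell cycle list had 10 rises among 38 genes.

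Cartilage genes fell furthest. Of 24 cartilage genes tested, 22 were lower in both lines and none was higher, and the median log2 difference of the 24 was -5.68 in SS40 and -5.60 in SS64. *Col2a1* encodes the main collagen of cartilage, and its log2 level was 4.70, 4.72, 4.58 and 4.61 in SS40, 4.34, 4.19, 4.21 and 3.98 in SS64 and 13.01, 13.07, 13.04 and 13.04 in eMCs. Its log2 difference was -8.39 ± 0.07 in SS40 and -8.86 ± 0.07 in SS64, or 335-fold and 465-fold. *Hapln1*, the link protein that ties aggrecan to hyaluronan, was at or near the floor in both lines, with 3.55, 3.74, 3.55 and 3.81 in SS40, 3.79, 3.84, 3.70 and 3.55 in SS64 and 11.86, 11.95, 12.04 and 12.06 in eMCs. *Col11a1*, a collagen of the same fibrils as type II, read 4.09, 4.40, 4.29 and 4.21 in SS40, 3.55, 3.61, 3.66 and 3.55 in SS64 and 12.43, 12.47, 12.46 and 12.46 in eMCs. The line arrays of these 3 genes lay at the bottom of the scale and the eMC arrays near its top, and the groups were far from overlapping. *Col9a1*, a collagen on the surface of those fibrils, differed by -8.20 ± 0.10 in SS40 and -8.14 ± 0.10 in SS64, and *Matn3*, a cartilage matrix adaptor protein, by -7.62 ± 0.08 in SS40 and -7.72 ± 0.08 in SS64. *Acan*, the large cartilage proteoglycan, differed by -6.05 ± 0.09 in SS40 and -6.73 ± 0.09 in SS64. *Epyc*, a small leucine-rich proteoglycan of growth cartilage, was at the floor on all 8 line arrays and at 10.94 to 11.08 in eMCs, which makes it at least 176-fold lower in each line. It passed the filter only through the eMCs, so that it had to differ once it was tested. *Cnmd*, *Cytl1*, *Matn1*, *Snorc* and *Rtl3*, among the 15 largest falls of all genes, were each lower by 6.81 to 8.33 log2 units in the 2 lines. *Cnmd* encodes chondromodulin, an inhibitor of vessel growth made by chondrocytes, and *Matn1* a further matrilin.

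The transcription factors of the chondrocyte lineage were lower as well. *Sox9*, the factor required to form cartilage, had a log2 level of 5.49, 5.86, 5.58 and 5.51 in SS40, 4.47, 4.57, 4.80 and 3.97 in SS64 and 9.58, 9.67, 9.70 and 9.44 in eMCs. It was lowest in SS64, intermediate in SS40 and highest in eMCs, with no overlap between any of the groups. Its log2 difference was -3.99 ± 0.15 in SS40 and -5.15 ± 0.15 in SS64, and the 2 lines differed from each other by 1.16 (limma adjusted p = 9.59e-06). *Sox5*, a partner of *Sox9*, differed by -3.20 ± 0.16 in SS40 and -2.64 ± 0.16 in SS64 in its brightest probe set, whereas its other 2 probe sets read 0.41 and -0.51 in SS40 and 0.29 and -0.35 in SS64. With the mean of the 3, SS64 was no longer called, at -0.90. *Sox6*, the other partner, chosen after its values were seen, passed the fold threshold in SS40 only, with log2 differences of -2.65 ± 0.09 in SS40 and -0.52 ± 0.09 in SS64. The summed intensity of the 24 cartilage genes was 505 to 562 in SS40 and 617 to 659 in SS64, against 48063 to 49123 in eMCs, where a sum of 281 is what floor values alone would give. In bulk RNA, fewer cells of a type and less RNA per cell cannot be told apart, and this holds for each lineage described below.

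**Figure D2:**
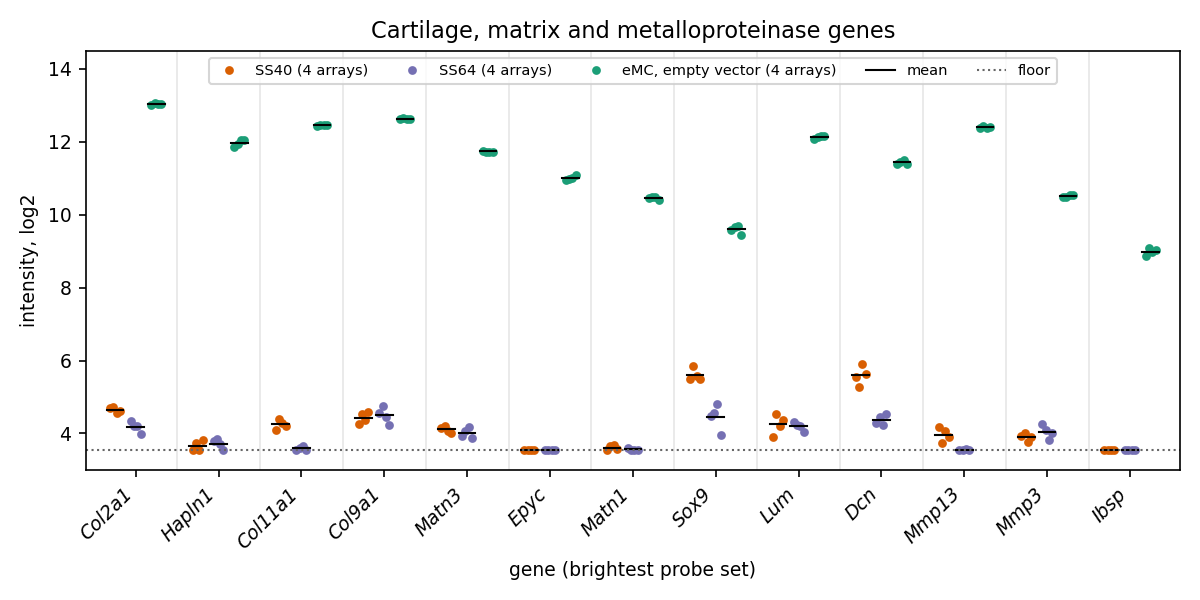
Log2 intensity (vertical axis) of cartilage, matrix, metalloproteinase and bone genes in each of the 4 SS40, 4 SS64 and 4 empty vector eMC arrays, with the group mean as a bar. The eMC arrays of *Col2a1* read 13.01 to 13.07 and those of the lines 3.98 to 4.72.

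Bone and tendon genes followed the same direction. Of 12 bone genes tested, 8 were lower in both lines, and of 10 tendon and joint genes, 7. *Ibsp*, bone sialoprotein, was at the floor on all 8 line arrays and read 8.88 to 9.09 in eMCs, so it was at least 43.5-fold lower in each line. That probe set passed the filter only through the eMCs, and the other probe set of *Ibsp*, which took its place when an eMC array was left out, differed by -3.13 in SS40 and -3.21 in SS64. *Dmp1*, a matrix protein of osteocytes, was likewise at the floor in the lines and read 6.51 to 6.90 in eMCs, and it too passed the filter only through them. *Omd*, osteomodulin, differed by -3.31 ± 0.09 in SS40 and -5.84 ± 0.09 in SS64, and *Pth1r*, the receptor of parathyroid hormone, by -3.76 ± 0.12 in SS40 and -4.44 ± 0.12 in SS64. In tendon, *Fmod*, fibromodulin, differed by -4.75 ± 0.11 in SS40 and -4.56 ± 0.11 in SS64, and *Thbs4*, thrombospondin 4, by -3.85 ± 0.13 in SS40 and -3.91 ± 0.13 in SS64.

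Among 34 fibroblast matrix genes, 13 were lower in both lines and 1 was higher. *Lum*, lumican, a proteoglycan that organizes collagen fibrils, had a log2 level of 3.90, 4.53, 4.21 and 4.37 in SS40, 4.33, 4.23, 4.22 and 4.04 in SS64 and 12.08, 12.14, 12.16 and 12.17 in eMCs. *Dcn*, the related decorin, had 5.56, 5.29, 5.90 and 5.64 in SS40, 4.28, 4.45, 4.22 and 4.55 in SS64 and 11.41, 11.46, 11.50 and 11.41 in eMCs. *Lum* was 236-fold lower in SS40 and 245-fold lower in SS64, and no line array came near the eMC arrays in either gene. *Col6a3*, a chain of the pericellular collagen VI, differed by -6.53 ± 0.07 in SS40 and -4.33 ± 0.07 in SS64, and *Dpt*, dermatopontin, by -3.34 ± 0.23 in SS40 and -2.87 ± 0.23 in SS64. *Thbs2*, thrombospondin 2, was the 1 matrix gene that was higher in both lines, by 1.11 ± 0.04 in SS40 and 1.10 ± 0.04 in SS64. Its call was lost in both lines with the mean of its probe sets, at 0.78 in SS40 and 0.96 in SS64, and against eMCs with *SS18-SSX1*, at 0.42 in SS40 and 0.41 in SS64, and in SS64 also in 1 fit of all 53 arrays (limma adjusted p = 0.0552). *Postn*, periostin, chosen after its values were seen, went in opposite directions, with -1.99 ± 0.04 in SS40 and 1.63 ± 0.04 in SS64, the second being 0.94 against eMCs with *SS18-SSX1*.

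Metalloproteinases, the enzymes that cut the extracellular matrix, and their inhibitors made up a list of 24 genes, of which 10 were lower in both lines and none was higher. *Mmp13*, a collagenase of growth cartilage and bone, had the largest fall of any gene by the smaller of its differences in the 2 lines, at 4.17, 3.74, 4.06 and 3.90 in SS40, 3.55, 3.55, 3.58 and 3.55 in SS64 and 12.38, 12.42, 12.39 and 12.42 in eMCs. Its log2 difference was -8.44 ± 0.08 in SS40 and -8.85 ± 0.08 in SS64. *Mmp3*, stromelysin 1, had 3.94, 4.00, 3.78 and 3.92 in SS40, 4.26, 4.09, 3.84 and 4.03 in SS64 and 10.49, 10.49, 10.53 and 10.54 in eMCs. Both genes stood well above the floor in every eMC array and close to it in every line array. *Mmp12*, the macrophage elastase, differed by -3.01 ± 0.08 in SS40 and -2.86 ± 0.08 in SS64. *Reck*, a membrane-bound inhibitor of metalloproteinases, was also lower, with -5.03 ± 0.09 in SS40 and -4.64 ± 0.09 in SS64. Of the secreted inhibitors, *Timp2* read 11.92 to 11.98 in SS40, 10.91 to 11.01 in SS64 and 11.26 to 11.32 in eMCs and *Timp1* read 11.94 to 12.08 in SS40, 10.82 to 10.92 in SS64 and 12.36 to 12.43 in eMCs, both chosen after their values were seen and neither called lower in SS40.

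*Mmp13* and *Mmp3* lie in a cluster of metalloproteinase genes on chromosome 9 together with *Mmp10*, and their promoters are shown because *Mmp10* carried the same motifs and was not called in either line. The sequences are the 250 bases before each annotated start in RefSeq (GRCm38.p6, plus strand), and the capitals mark TGANTCA, the letters bound by AP-1 (FOS and JUN), and TATAAA, the TATA box, each searched on both strands.
Mmp13, chr9:7272264-7272513: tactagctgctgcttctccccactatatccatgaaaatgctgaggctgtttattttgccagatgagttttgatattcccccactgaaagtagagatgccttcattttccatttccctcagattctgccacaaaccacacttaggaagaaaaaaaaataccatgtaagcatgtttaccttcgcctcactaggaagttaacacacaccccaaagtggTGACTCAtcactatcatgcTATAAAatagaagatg
Mmp3, chr9:7445572-7445821: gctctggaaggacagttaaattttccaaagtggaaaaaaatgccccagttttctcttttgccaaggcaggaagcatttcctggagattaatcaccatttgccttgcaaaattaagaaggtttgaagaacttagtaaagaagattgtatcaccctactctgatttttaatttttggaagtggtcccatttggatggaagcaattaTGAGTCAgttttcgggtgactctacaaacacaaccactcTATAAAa
Mmp10, chr9:7502092-7502341: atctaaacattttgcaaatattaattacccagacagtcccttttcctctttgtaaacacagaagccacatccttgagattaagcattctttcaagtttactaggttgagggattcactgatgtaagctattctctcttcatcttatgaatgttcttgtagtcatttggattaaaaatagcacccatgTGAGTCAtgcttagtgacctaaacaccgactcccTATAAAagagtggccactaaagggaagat
The AP-1 letters began 35, 46 and 63 bases before the start of *Mmp13*, *Mmp3* and *Mmp10*, and the TATA letters 16, 7 and 29 bases before it. *Mmp10*, stromelysin 2, chosen after its values were seen, read 4.87, 5.01, 4.68 and 4.73 in SS40, 5.29, 5.22, 5.00 and 5.07 in SS64 and 5.20, 5.40, 5.31 and 5.55 in eMCs. It was called in neither line, with log2 differences of -0.55 ± 0.10 in SS40 and -0.22 ± 0.10 in SS64. TATAAA was present in the promoter window (250 bases before to 50 after the start) of 103 of 631 genes lower in both lines (16.3%), 32 of 347 genes higher in both lines (9.22%) and 11.1% of all genes tested that had a window. TGANTCA was present in 9.98% of the lower genes, 7.49% of the higher genes and 7.18% of all. The median number of CG dinucleotides in the window was 14 in the lower genes, 23 in the higher genes and 19 in all. These are descriptions of letters and not of bound sites.

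Many markers of macrophages, fat and muscle were higher in the eMC culture than in the lines. Of 22 macrophage genes tested, 14 were lower in both lines and none was higher. *Lyz2*, lysozyme of macrophages and granulocytes, had a log2 level of 3.91, 3.75, 3.55 and 3.55 in SS40, 3.75, 3.77, 3.76 and 3.90 in SS64 and 10.47, 10.44, 10.46 and 10.45 in eMCs. *Ctss*, the lysosomal protease cathepsin S, differed by -5.87 ± 0.13 in SS40 and -6.12 ± 0.13 in SS64, *Tyrobp*, a signalling adaptor of myeloid cells, by -4.34 ± 0.15 in SS40 and -4.21 ± 0.15 in SS64, and *Cd68* by -4.01 ± 0.10 in SS40 and -3.83 ± 0.10 in SS64. *Adgre1*, which encodes F4/80, read 4.03 to 4.21 in SS40, 3.98 to 4.34 in SS64 and 5.98 to 6.40 in eMCs, while the defining marker *Csf1r* was not called in either line, with -0.31 ± 0.13 in SS40 and -0.37 ± 0.13 in SS64. The summed intensity of the 22 macrophage genes was 891 to 995 in SS40 and 992 to 1079 in SS64, against 5622 to 5758 in eMCs. Of 12 neutrophil genes, 3 were lower in both lines, namely *Lcn2*, *S100a8* and *S100a9*, with *Lcn2*, lipocalin 2, differing by -5.32 ± 0.10 in SS40 and -5.21 ± 0.10 in SS64. Of 10 red cell and platelet genes, 1 was lower in both lines. The mast cell list went the other way, with 1 of 11 genes higher in both lines and none lower. Its summed intensity was 350 to 392 in SS40 and 322 to 349 in SS64, against 215 to 234 in eMCs. None of 18 endothelial and none of 10 lymphocyte genes was called in both lines by limma, and at an unadjusted p under 0.05 with no fold threshold 3 and 2 of them differed in both lines in 1 direction, where 40.8% of all genes tested did. Of 22 epithelial genes, 3 were lower in both lines, where 5.27% of all genes were. They included the keratin gene *Krt18*, with -3.47 ± 0.12 in SS40 and -4.19 ± 0.12 in SS64, and the adhesion gene *Epcam*, with -2.47 ± 0.12 in SS40 and -1.88 ± 0.12 in SS64. The other probe set of *Epcam* read 0.09 in SS40 and -0.10 in SS64, and in SS64 the call was lost with the mean of both, at -0.99, and against eMCs with *SS18-SSX1*, at -0.69.

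Of 11 adipocyte genes, 6 were lower in both lines. *Fabp4*, the fatty acid binding protein of fat cells, had a log2 level of 6.77, 6.56, 6.45 and 6.63 in SS40, 3.55, 3.82, 3.60 and 3.67 in SS64 and 11.02, 11.00, 11.03 and 11.00 in eMCs. SS40 lay between SS64 and eMCs, and the lines differed from each other by 2.94. *Adipoq*, the hormone adiponectin, differed by -4.34 ± 0.09 in SS40 and -4.17 ± 0.09 in SS64, *Lpl*, lipoprotein lipase, by -5.26 ± 0.10 in SS40 and -5.78 ± 0.10 in SS64, and *Cd36*, a fatty acid receptor, by -4.57 ± 0.11 in SS40 and -4.68 ± 0.11 in SS64. Of 32 skeletal muscle genes, 10 were lower in both lines. *Myog*, the regulator of myoblast differentiation, read 4.40, 4.49, 4.51 and 4.31 in SS40, 4.50, 4.47, 4.26 and 4.47 in SS64 and 8.84, 8.89, 8.87 and 8.73 in eMCs. *Actc1*, the actin of embryonic muscle, differed by -4.22 ± 0.13 in SS40 and -3.93 ± 0.13 in SS64. The summed intensity of the muscle list was 821 to 909 in SS40 and 1304 to 1335 in SS64, against 2573 to 2633 in eMCs. The part of these other cells in the gene counts was not tested.

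Imprinted genes, which are expressed from 1 parental copy and many of which act on fetal growth, formed a further group of falls. Of 16 tested, 11 were lower in both lines and none was higher, with a median log2 difference of -3.09 in SS40 and -2.73 in SS64. *Igf2*, the fetal growth factor insulin-like growth factor 2, had a log2 level of 6.27, 6.74, 6.26 and 6.61 in SS40, 5.49, 5.50, 5.13 and 5.66 in SS64 and 12.45, 12.43, 12.44 and 12.45 in eMCs. It was 62.8-fold lower in SS40 and 128-fold lower in SS64. *Peg3*, a zinc finger protein of a paternally expressed domain, had 4.50, 4.40, 4.24 and 3.95 in SS40, 5.30, 5.85, 5.70 and 5.12 in SS64 and 10.96, 11.06, 11.04 and 10.70 in eMCs. *Ndn*, necdin, differed by -4.94 ± 0.14 in SS40 and -5.89 ± 0.14 in SS64. *Rian* and *Meg3*, maternally expressed noncoding RNAs of the Dlk1-Dio3 domain, differed by -4.88 ± 0.13 in SS40 and -6.63 ± 0.13 in SS64 and by -3.74 ± 0.13 in SS40 and -4.69 ± 0.13 in SS64, and *Dlk1*, the paternally expressed protein gene of that domain, by -3.76 ± 0.15 in SS40 and -5.58 ± 0.15 in SS64. *Meg3* had 10 probe sets, of which 3 were called lower in both lines. Genes from both parental classes therefore stood among the falls. *Plagl1*, a zinc finger factor, fell less, with 9.15, 8.96, 9.02 and 9.05 in SS40, 10.15, 10.16, 10.14 and 10.10 in SS64 and 12.91, 12.91, 12.76 and 12.86 in eMCs. *Cdkn1c*, the cell cycle inhibitor p57, had 7.78, 6.22, 7.31 and 7.30 in SS40, 3.87, 4.17, 3.64 and 3.98 in SS64 and 11.42, 11.59, 11.57 and 11.26 in eMCs. Here replicate 2 of SS40 was lower than the other 3, and the lines differed by 3.23. *Grb10*, an adaptor that limits insulin signalling, was lower in SS64 only, with 0.30 ± 0.03 in SS40 and -2.40 ± 0.03 in SS64, and *Sgce*, epsilon-sarcoglycan, in SS40 only, with -2.44 ± 0.06 in SS40 and 0.08 ± 0.06 in SS64. *Plagl1*, *Cdkn1c*, *Dlk1*, *Meg3*, *Grb10* and *Sgce* were chosen from the list after their values were seen.

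Of 16 genes of the insulin-like growth factor axis, 5 were lower in both lines. Besides *Igf2* these included *Igfbp4*, a binding protein that holds the ligands back, with -2.35 ± 0.11 in SS40 and -2.50 ± 0.11 in SS64, *Igfbp6*, which prefers IGF2, with -2.52 ± 0.10 in SS40 and -2.07 ± 0.10 in SS64, and the insulin receptor *Insr*, with -1.64 ± 0.11 in SS40 and -1.36 ± 0.11 in SS64. *Insr* lost the call when its probe sets were averaged. *Igf1*, one of the genes that the study named, was not lower in both lines. It had a log2 level of 7.26, 7.52, 7.43 and 7.57 in SS40, 9.20, 9.21, 9.32 and 9.20 in SS64 and 8.32, 8.15, 8.24 and 8.10 in eMCs. SS64 was above and SS40 below the eMCs, with log2 differences of -0.75 ± 0.07 in SS40 and 1.03 ± 0.07 in SS64, and the rise in SS64 was 2.04-fold. Without eMC replicate 4 it lay just under the threshold, at 1.00 on the log2 scale, after quantile normalization it was 0.91, and against eMCs with *SS18-SSX1* in place of the empty vector the log2 difference in SS64 was -0.17.

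**Figure D3:**
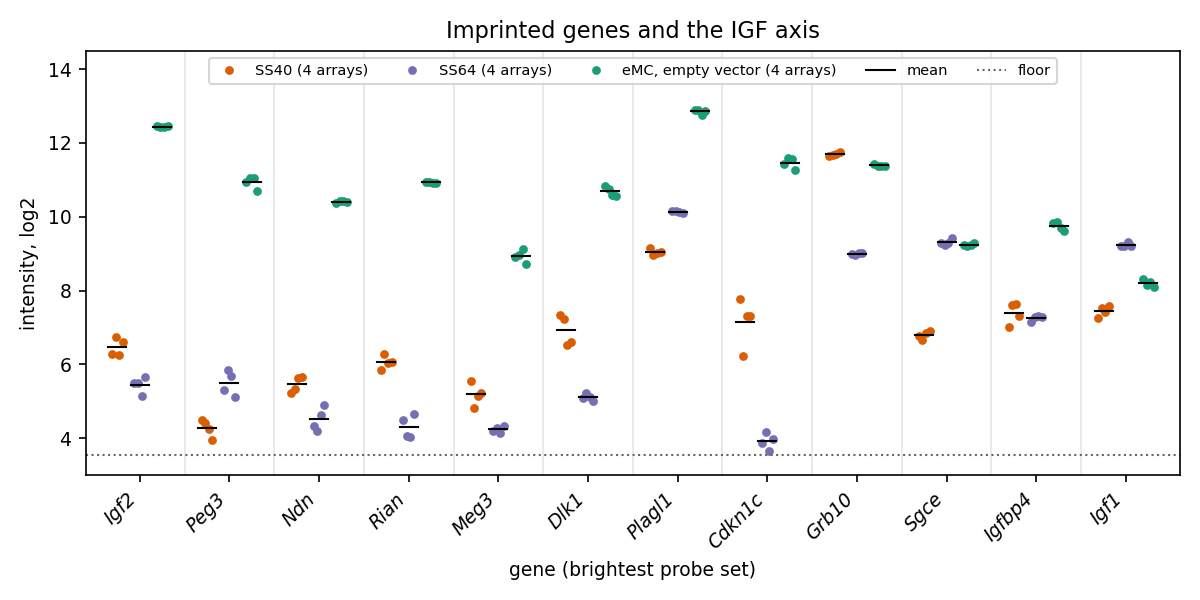
Log2 intensity (vertical axis) of 10 imprinted genes and of *Igfbp4* and *Igf1* in each of the 4 SS40, 4 SS64 and 4 empty vector eMC arrays, with the group mean as a bar. *Igf2* read 12.43 to 12.45 in eMCs and at most 6.74 in the lines, while *Grb10* was lower in SS64 alone.

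The rises were fewer. By the smaller of the differences in the 2 lines, the largest were in *Prl2c2*, *Cdkn2a*, *Gdnf* and *Pkp2*, the 4 genes over 16-fold higher in both. *Prl2c2*, proliferin, a secreted hormone of the prolactin family, had a log2 level of 8.92, 9.01, 9.01 and 8.95 in SS40, 12.64, 12.64, 12.51 and 12.62 in SS64 and 4.36, 4.66, 4.57 and 4.33 in eMCs. It was 22.5-fold higher in SS40 and 278-fold higher in SS64, and because near-identical copies of this gene exist in the mouse, the signal may not come from *Prl2c2* alone. *Cdkn2a*, which encodes the tumor suppressors p16INK4a and p19ARF from different starts, had 11.31, 10.99, 11.37 and 11.34 in SS40, 10.43, 10.46, 10.43 and 10.37 in SS64 and 6.07, 6.04, 6.26 and 6.12 in eMCs. The line arrays were all at 10.37 or above and the eMC arrays at 6.26 or below, a difference of 5.13 ± 0.08 in SS40 and 4.30 ± 0.08 in SS64. *Gdnf*, glial cell line-derived neurotrophic factor, had 8.26, 7.98, 8.20 and 8.21 in SS40, 8.78, 8.74, 8.90 and 8.90 in SS64 and 3.92, 4.09, 4.16 and 4.07 in eMCs. *Pkp2*, the desmosomal protein plakophilin 2, had 8.66, 8.84, 8.82 and 8.73 in SS40, 8.35, 8.26, 8.54 and 8.35 in SS64 and 4.17, 4.60, 4.32 and 4.20 in eMCs. Every line array lay above every eMC array in these 4 genes, which the rule that chose them required.

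The promoters of *Cdkn2a* are shown because the gene was among the 4 largest rises and because its 2 annotated starts differ in CG content. They are the 250 bases before each start on the minus strand of chromosome 4 in RefSeq (GRCm38.p6), with CG dinucleotides in capitals.
Cdkn2a start 1, chr4:89294620-89294869: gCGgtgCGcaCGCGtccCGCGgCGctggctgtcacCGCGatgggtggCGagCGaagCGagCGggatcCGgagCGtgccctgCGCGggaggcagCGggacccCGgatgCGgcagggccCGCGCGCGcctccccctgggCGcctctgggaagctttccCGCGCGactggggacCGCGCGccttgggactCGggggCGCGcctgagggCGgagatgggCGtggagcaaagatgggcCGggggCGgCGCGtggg
Cdkn2a start 2, chr4:89282193-89282442: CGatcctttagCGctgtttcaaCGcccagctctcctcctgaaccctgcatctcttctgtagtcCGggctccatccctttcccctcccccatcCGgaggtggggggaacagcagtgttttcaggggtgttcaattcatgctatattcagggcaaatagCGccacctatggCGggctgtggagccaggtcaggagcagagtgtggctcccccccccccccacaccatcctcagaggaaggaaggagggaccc
The first holds 40 CG dinucleotides and the second 7. The single probe set of *Cdkn2a* does not tell which start was used.

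The other large rises held genes of varied function. *Cdh2*, N-cadherin, a cell adhesion molecule of mesenchymal and neural cells, had 10.69, 10.43, 10.68 and 10.67 in SS40, 11.54, 11.52, 11.43 and 11.34 in SS64 and 7.63, 7.56, 7.54 and 7.68 in eMCs. *Uchl1*, a ubiquitin hydrolase of neurons, had 7.08, 7.05, 6.78 and 6.83 in SS40, 7.71, 7.67, 7.56 and 7.78 in SS64 and 3.87, 4.32, 3.83 and 4.46 in eMCs, and *Tes*, testin, a protein of focal adhesions, had 9.94, 9.77, 9.95 and 9.96 in SS40, 11.10, 11.09, 11.07 and 11.15 in SS64 and 7.14, 7.19, 7.08 and 7.13 in eMCs. All 8 line arrays were above all 4 eMC arrays in these genes, again as the rule that chose them required. *Ugt8a*, the enzyme of galactosylceramide synthesis in myelin, was near the floor in eMCs and differed by 2.62 ± 0.08 in SS40 and 4.85 ± 0.08 in SS64. *Osbpl3*, an oxysterol binding protein, differed by 3.10 ± 0.11 in SS40 and 2.52 ± 0.11 in SS64, and *Cdkl2*, a CDK-like kinase, by 2.63 ± 0.10 in SS40 and 2.78 ± 0.10 in SS64. The remaining genes of the 15 largest rises were *C920009B18Rik*, *Lurap1l*, *Atp6v0e2*, *Afap1l2* and *Cystm1*, with log2 differences from 2.58 to 4.78. Among 34 adhesion genes, *Mcam*, the melanoma cell adhesion molecule, and *Cd44*, the hyaluronan receptor, were higher in both lines as well, by 1.71 ± 0.07 in SS40 and 4.97 ± 0.07 in SS64 and by 1.34 ± 0.03 in SS40 and 1.18 ± 0.03 in SS64, and *Icam1*, a leukocyte adhesion ligand, was lower, with -2.77 ± 0.12 in SS40 and -3.54 ± 0.12 in SS64. Set against eMCs with *SS18-SSX1* in place of the empty vector, *Ugt8a* and *Mcam* turned direction in SS40, at -0.67 and -0.55, and the call was lost for *Uchl1* and *Afap1l2* in SS40, at 0.96 and 0.62, and for *Cd44*, at 0.99 in SS40 and 0.83 in SS64.

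**Figure D4:**
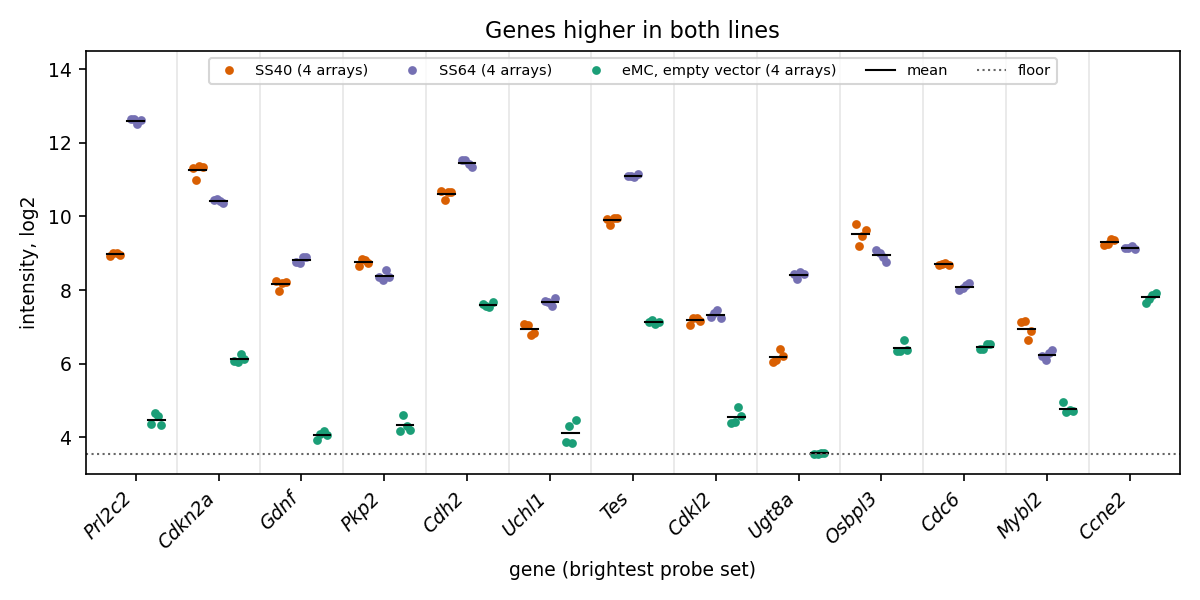
Log2 intensity (vertical axis) of 10 of the genes with the largest rises and of the cell cycle genes *Cdc6*, *Mybl2* and *Ccne2* in each of the 4 SS40, 4 SS64 and 4 empty vector eMC arrays, with the group mean as a bar. *Cdkn2a* read 10.37 to 11.37 in the lines and 6.04 to 6.26 in eMCs.

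Of the lists in the bar plot, the cell cycle genes held the largest share of rises. Of 38 tested, 10 were higher in both lines and none was lower, and the median log2 difference was 1.01 in SS40 and 0.79 in SS64. *Cdc6*, a factor that licenses DNA replication, had 8.68, 8.71, 8.72 and 8.67 in SS40, 8.00, 8.04, 8.13 and 8.19 in SS64 and 6.39, 6.39, 6.54 and 6.52 in eMCs. *Mybl2*, a transcription factor of G2 and mitotic genes, had 7.12, 7.15, 6.63 and 6.90 in SS40, 6.21, 6.09, 6.30 and 6.37 in SS64 and 4.97, 4.68, 4.74 and 4.72 in eMCs. *Ccne2*, cyclin E2, differed by 1.50 ± 0.06 in SS40 and 1.34 ± 0.06 in SS64. *Brca1*, a DNA repair gene driven by E2F, differed by 1.95 ± 0.11 in SS40 and 1.45 ± 0.11 in SS64 and fell under the fold threshold when its probe sets were averaged. The groups did not overlap in any of these genes. Compared with eMCs with *SS18-SSX1*, *Ccne2* was not called, at 0.70 in SS40 and 0.54 in SS64, nor was *Cdc6* in SS64, at 0.95. *Mki67*, a marker of cycling cells chosen after its values were seen, passed the fold threshold in SS64 only, with 0.89 ± 0.05 in SS40, or 1.03 against eMCs with *SS18-SSX1*, and 1.69 ± 0.05 in SS64.

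Inhibitors of the cell cycle and targets of p53 were described as a separate list. Of 27 D cyclins, CDK inhibitors and p53 targets, 5 were lower in both lines and *Cdkn2a* alone was higher. *Cdkn1a*, the p53 target p21, had a log2 level of 6.79, 6.70, 6.51 and 6.49 in SS40, 7.99, 7.81, 7.73 and 7.88 in SS64 and 9.62, 9.60, 9.61 and 9.62 in eMCs. *Trp53inp1*, a p53-induced nuclear protein, differed by -3.92 ± 0.13 in SS40 and -3.12 ± 0.13 in SS64, and *Ccng1*, cyclin G1, another p53 target, by -1.29 ± 0.07 in SS40 and -1.37 ± 0.07 in SS64. *Mdm2*, the ubiquitin ligase of p53, chosen after its values were seen, was lower in SS40 only, with -1.19 ± 0.07 in SS40 and -0.16 ± 0.07 in SS64. Among 17 genes of the BCL2 family, 2 were higher in both lines (11.8%, next to 2.67% of all genes) and none was lower. These were *Bok*, by 1.23 ± 0.09 in SS40 and 1.31 ± 0.09 in SS64, and *Bak1*, by 1.87 ± 0.16 in SS40 and 1.16 ± 0.16 in SS64. Both promote cell death. *Bak1* lost its call in SS64 with the mean of its probe sets, at 0.73. With *SS18-SSX1* eMCs as the comparison, *Bak1* was at 0.60 in SS64, *Bok* at 0.89 in SS40 and 0.965 in SS64, and *Ccng1* at -0.97 in SS40, none of them called.

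Of 19 interferon-stimulated genes, 12 were lower in both lines and 1 was higher. *Usp18*, which removes ISG15 from proteins, had 3.62, 3.65, 3.83 and 3.90 in SS40, 4.05, 3.58, 3.89 and 4.20 in SS64 and 8.56, 8.55, 8.76 and 8.77 in eMCs, and *Rtp4*, an interferon-induced chaperone, differed by -4.43 ± 0.13 in SS40 and -5.59 ± 0.13 in SS64. *Ifit1*, an RNA sensor, differed by -2.72 ± 0.10 in SS40 and -3.92 ± 0.10 in SS64, and *Irf9*, part of the factor through which type I interferon acts, by -2.48 ± 0.08 in SS40 and -2.65 ± 0.08 in SS64. *Ifit2*, a relative of *Ifit1*, was the 1 gene that was higher, by 1.24 ± 0.06 in SS40 and 1.21 ± 0.06 in SS64, but not against eMCs with *SS18-SSX1*, where the differences were 0.23 in SS40 and 0.19 in SS64. The summed intensity of the list was 1370 to 1490 in SS40 and 1308 to 1359 in SS64, against 4749 to 4900 in eMCs. The eMCs had been exposed to a retrovirus for 48 h, and its part in these values was not tested.

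Of 22 immediate early genes, which answer serum and growth factors within minutes, 6 were lower in both lines and none was higher. *Fos*, a subunit of AP-1, had 7.62, 7.63, 7.81 and 7.81 in SS40, 8.19, 8.21, 8.48 and 8.48 in SS64 and 11.00, 11.04, 11.01 and 11.01 in eMCs. *Dusp1*, a phosphatase of MAP kinases, differed by -2.26 ± 0.06 in SS40 and -3.85 ± 0.06 in SS64, *Btg2* by -2.17 ± 0.13 in SS40 and -2.31 ± 0.13 in SS64, and *Egr1*, a zinc finger factor that the study also named, by -1.84 ± 0.06 in SS40 and -2.77 ± 0.06 in SS64. The eMCs had more serum than the lines, and the serum cannot be told apart from the group. Of 30 chemokines and cytokines, 7 were lower and 2 higher in both lines. *Ccl6*, a chemokine, differed by -3.04 ± 0.11 in SS40 and -3.32 ± 0.11 in SS64, and *Il1rn*, the antagonist of the interleukin 1 receptor, by -2.11 ± 0.12 in SS40 and -2.87 ± 0.12 in SS64. *Il6* was at the floor on all 4 SS40 arrays and at 3.97 to 4.27 in SS64 and 5.61 to 5.81 in eMCs. *Il33*, an alarmin, and *Lif*, leukemia inhibitory factor, were the 2 that rose, by 3.18 ± 0.09 in SS40 and 1.16 ± 0.09 in SS64 and by 1.28 ± 0.09 in SS40 and 1.64 ± 0.09 in SS64, and against eMCs with *SS18-SSX1* the difference of *Il33* in SS64 was -0.93. *Il33* in SS64 was also not called in 1 fit of all 53 arrays (limma adjusted p = 0.0748). The other 2 probe sets of *Lif* read 0.006 and 0.26 in SS40 and 0.08 and 0.29 in SS64, and with the mean of the 3 the gene was called in neither line, at 0.52 and 0.67.

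Of 29 genes of the FGF pathway, 7 were lower in both lines and none was higher. Opposite directions were called in 3 of the 29, and 8 were called in 1 line only. *Fgfr3*, the receptor that restrains growth of cartilage, had 5.57, 5.23, 6.04 and 5.88 in SS40, 4.53, 4.46, 4.79 and 5.03 in SS64 and 10.01, 10.07, 10.08 and 10.08 in eMCs, and *Fgfr2* differed by -3.47 ± 0.15 in SS40 and -4.28 ± 0.15 in SS64. *Fgfr1* was lower in both lines too, chosen here from a list of genes at common retroviral integration sites, with 8.47, 7.87, 8.21 and 8.16 in SS40, 5.73, 5.73, 5.67 and 6.00 in SS64 and 9.90, 10.05, 9.94 and 9.89 in eMCs. All 3 receptors averaged lower in SS64 than in SS40, and the difference between the lines passed the threshold for *Fgfr1* only, at 2.40. The decoy receptor *Fgfrl1* differed by -2.24 ± 0.07 in SS40 and -2.28 ± 0.07 in SS64, and *Spry4*, a feedback inhibitor of the pathway, by -2.64 ± 0.09 in SS40 and -2.11 ± 0.09 in SS64, the second being -0.98 and not called with the mean of its probe sets. Of 36 BMP and TGF-beta genes, 8 were lower in both lines and none was higher. The lines also diverged here, with 5 of the 36 called in opposite directions and 11 in 1 line only. Of all genes, 0.881% were called in opposite directions and 14.9% in 1 line only. *Gdf10*, a ligand of this family, had 3.74, 3.85, 4.01 and 3.96 in SS40, 3.61, 3.55, 4.09 and 3.95 in SS64 and 10.22, 10.27, 10.29 and 10.24 in eMCs. *Bmp2* had 7.14, 6.23, 7.02 and 6.80 in SS40, 3.55, 3.63, 3.55 and 3.55 in SS64 and 9.58, 9.53, 9.53 and 9.48 in eMCs, *Bmp5* differed by -2.90 ± 0.10 in SS40 and -2.85 ± 0.10 in SS64, and *Bmp6* by -1.85 ± 0.17 in SS40 and -3.04 ± 0.17 in SS64. The fall of *Bmp6* in SS40 was not seen against eMCs with *SS18-SSX1*, at -0.075 (limma adjusted p = 0.732). SS64 was at or next to the floor for *Bmp2*, and SS40 lay between SS64 and the eMCs.

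Of 55 genes of the Wnt pathway, 6 were lower and 1 was higher in both lines (10.9 and 1.82%, next to 5.27 and 2.67% of all genes). In SS40 by itself 10 were higher and 8 lower, and in SS64 5 were higher and 16 lower. Of all genes, 8.57% were higher and 8.32% lower in SS40, and 7.24% and 8.41% in SS64. Opposite directions were called in 3 Wnt genes, next to 0.881% of all genes. *Fzd9*, a receptor, differed by -4.10 ± 0.09 in SS40 and -4.25 ± 0.09 in SS64. *Wif1*, a secreted antagonist, was at the floor on all 8 line arrays and at 7.39 to 7.61 in eMCs. It passed the filter only through the eMCs, so that it had to differ once it was tested. *Rspo3*, a secreted agonist, differed by -2.48 ± 0.15 in SS40 and -3.05 ± 0.15 in SS64, and *Frzb*, another secreted antagonist, by -2.19 ± 0.24 in SS40 and -2.14 ± 0.24 in SS64. *Apc*, part of the complex that degrades beta-catenin, was the 1 that rose, by 1.03 ± 0.07 in SS40 and 1.93 ± 0.07 in SS64. Its call in SS40 was lost with the mean of its 3 probe sets, at 0.55, after quantile normalization, at 0.91, against eMCs with *SS18-SSX1*, at 0.98, and without SS40 replicate 3 or eMC replicate 4, at 0.99 and 1.00. *Ctnnb1*, beta-catenin itself, which the study named, was not called, with -0.09 ± 0.03 in SS40 and 0.03 ± 0.03 in SS64.

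Among patterning factors of the limb and mesenchyme, 4 of 45 were higher and 4 lower in both lines (8.89% each, next to 2.67 and 5.27% of all genes). *Dlx1* and *Dlx2*, homeobox neighbours on chromosome 2, were both higher, whereas another gene of the DLX family was among the 4 lower ones. *Dlx1* had 6.02, 6.16, 6.00 and 5.73 in SS40, 8.02, 8.03, 7.96 and 7.91 in SS64 and 3.55, 3.67, 3.63 and 3.75 in eMCs, and *Dlx2* had 6.95, 6.70, 6.90 and 7.05 in SS40, 8.72, 8.49, 8.64 and 8.63 in SS64 and 4.70, 4.42, 4.51 and 4.74 in eMCs. *Dlx1* was at or next to the floor in eMCs, and both genes were higher in SS64 than in SS40. *Meox2*, a homeobox factor of muscle and limb precursors, was lower, with -4.44 ± 0.09 in SS40 and -4.47 ± 0.09 in SS64. In a separate list of 29 ZIC, PAX, SOX and forkhead factors, 1 was higher and 5 were lower in both lines. Opposite directions were called in 3 of the 29, next to 0.881% of all genes. The forkhead factor *Foxp2* was lower, with -3.77 ± 0.15 in SS40 and -3.71 ± 0.15 in SS64. *Pax3*, a factor of muscle and neural crest precursors, was the 1 that was higher, by 1.41 ± 0.17 in SS40 and 2.28 ± 0.17 in SS64. Of 32 HOX genes, which set position along the body axis, 5 were lower in both lines (15.6%, next to 5.27% of all genes) and none was higher. In SS40 by itself 6 HOX genes were higher and 7 lower, and in SS64 1 was higher and 7 were lower. Of all genes, 8.57% were higher and 8.32% lower in SS40, and 7.24% and 8.41% in SS64. *Hoxa5* was among those lower in both lines, with -3.50 ± 0.12 in SS40 and -4.09 ± 0.12 in SS64. So was *Hoxc8*, with -1.66 ± 0.08 in SS40, or -0.865 against eMCs with *SS18-SSX1*, and -5.60 ± 0.08 in SS64. None of 27 SWI/SNF subunits was called in both lines, where 7.94% of all genes were. By limma, 6 were called in 1 line only, next to 14.9% of all genes. At an unadjusted p under 0.05 with no fold threshold, 13 differed in both lines in 1 direction, next to 40.8% of all genes. Of 30 polycomb subunits, 2 were higher in both lines (6.67%, next to 2.67% of all genes) and none was lower. These were *Bcor*, by 1.35 ± 0.10 in SS40 and 1.42 ± 0.10 in SS64, and *Pcgf5*, by 1.57 ± 0.06 in SS40 and 1.08 ± 0.06 in SS64. Both are subunits of variant PRC1 complexes. Neither was called in both lines against eMCs with *SS18-SSX1*, with *Bcor* at 0.73 in SS40 and 0.80 in SS64 and *Pcgf5* at 0.83 in SS64, and *Pcgf5* in SS64 was also lost after quantile normalization, at 0.97, and with the mean of its probe sets, at 0.69.

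The genes that the study named in its account of the model went in mixed directions in these lines. The study did not report 1 shared direction for them. In its tumors it found *Sox2*, *Apod*, *Igf1*, *Atf2* and *Tle1* higher and *Egr1* lower, and tumors are not the lines compared here. Of 14 of the named genes tested here, 2 were lower in both lines, *Egr1* and *Cxcl15*, and 2 went in opposite directions. Another 3 were called in 1 line and 7 in neither. *Cxcl15*, a chemokine of neutrophils, had 3.96, 4.10, 4.22 and 4.37 in SS40, 4.21, 4.37, 4.28 and 4.34 in SS64 and 5.92, 5.67, 5.96 and 5.75 in eMCs, a low signal that was no longer called in either line in 1 fit of all 53 arrays, with the mean of its probe sets or against eMCs with *SS18-SSX1*. *Sox2*, a stem cell factor, had 3.55, 3.55, 3.64 and 3.55 in SS40, 10.74, 10.74, 10.74 and 10.73 in SS64 and 5.38, 5.13, 5.13 and 4.93 in eMCs. It was at or next to the floor in SS40 and 48.3-fold higher in SS64 than in eMCs, with no overlap between the groups, and with a higher floor SS40 was just under the threshold, at -0.99. *Apod*, apolipoprotein D, had 3.67, 4.81, 4.49 and 4.57 in SS40, 10.42, 10.40, 10.29 and 10.33 in SS64 and 7.59, 7.61, 7.63 and 7.66 in eMCs, which is 9.42-fold lower in SS40 and 6.68-fold higher in SS64, although against eMCs with *SS18-SSX1* its log2 difference in SS64 was -0.24. *Bcl2*, the survival factor, was lower in SS40 only, with -1.66 ± 0.09 in SS40 and -0.10 ± 0.09 in SS64, and *Twist1*, a mesenchymal factor, in SS64 only, with 0.20 ± 0.08 in SS40 and -2.86 ± 0.08 in SS64. *Tle1*, a corepressor used as a marker of synovial sarcoma, was called in neither line, with 0.19 ± 0.13 in SS40 and -0.14 ± 0.13 in SS64, nor were *Atf2*, with 0.89 ± 0.09 in SS40 and 0.59 ± 0.09 in SS64, *Ccnd1*, cyclin D1, with -0.27 ± 0.04 in SS40 and 0.87 ± 0.04 in SS64 (1.02 and called with the mean of its probe sets), and *Smarcb1*, a core SWI/SNF subunit, with -0.33 ± 0.05 in SS40 and -0.14 ± 0.05 in SS64. *Dnm3* was called in neither, with -0.18 ± 0.07 in SS40 and 0.02 ± 0.07 in SS64. The probe sets of its antisense gene *Dnm3os*, the host transcript of *miR-214*, gave different answers, the brighter on average with 0.35 ± 0.14 in SS40 and -0.31 ± 0.14 in SS64 and no call, and the other with -0.89 in SS40 and -1.28 in SS64 (limma adjusted p = 2.02e-05 and 4.42e-07), which passes the fold threshold in SS64.

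*Mycn*, an oncogene of the MYC family, had the largest fall of a short list of oncofetal genes, but only in its brightest probe set. That probe set read 7.24, 7.26, 7.22 and 7.24 in SS40, 5.41, 6.05, 5.15 and 5.35 in SS64 and 12.64, 12.59, 12.59 and 12.57 in eMCs, a difference of -5.36 ± 0.13 in SS40 and -7.11 ± 0.13 in SS64. Of its other 2 probe sets, 1 differed by -0.04 in SS40 and 1.60 in SS64 and the other by -0.02 and 0.14. The brightest probe set averaged 5.43 in eMCs with *SS18-SSX1* and had a median of 12.29 in the 12 SS tumors, so that against eMCs with *SS18-SSX1* the lines differed by 1.80 in SS40 and 0.056 in SS64. The 3 probe sets thus gave different answers for this gene.

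The lines differed from each other in 1898 genes (12% called), and 139 genes were called in opposite directions against the eMCs. *Cxcl5*, a chemokine of neutrophils, had 11.32, 11.42, 11.51 and 11.48 in SS40, 3.92, 3.82, 3.76 and 3.81 in SS64 and 9.61, 9.71, 9.68 and 9.71 in eMCs. *Penk*, the precursor of enkephalin peptides, had 11.69, 11.44, 11.47 and 11.46 in SS40, 3.79, 3.63, 4.52 and 3.82 in SS64 and 10.18, 10.16, 10.21 and 10.14 in eMCs. *Crabp1*, which binds retinoic acid in the cell, had 11.86, 11.63, 11.83 and 11.86 in SS40, 4.53, 4.79, 4.03 and 4.01 in SS64 and 6.94, 6.98, 7.15 and 7.09 in eMCs. These 3 genes were higher in SS40 and lower in SS64 than in eMCs, without overlap, although *Penk* in SS40 was not called in 1 fit of all 53 arrays (limma adjusted p = 0.0517). *Ndnf*, a secreted neurotrophic protein, showed the same order, with 1.64 ± 0.06 in SS40 and -5.13 ± 0.06 in SS64. *Moxd1*, a monooxygenase-like protein, showed the opposite order, with 4.30, 4.36, 4.59 and 4.52 in SS40, 11.17, 11.20, 11.24 and 11.20 in SS64 and 9.97, 9.93, 10.01 and 10.07 in eMCs. *Stmn2*, a neuronal microtubule regulator, chosen after its values were seen, was 153-fold higher in SS40 than in eMCs and near the floor in SS64, with 7.26 ± 0.08 in SS40 and -0.26 ± 0.08 in SS64.

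Markers of Schwann cells and neural crest also separated the lines. Of 15 tested, 2 were lower in both lines, *S100b* with -5.37 ± 0.10 in SS40 and -5.38 ± 0.10 in SS64 and *Ednrb* with -2.90 ± 0.12 in SS40 and -2.70 ± 0.12 in SS64, and 9 were called in 1 line only. *Sox10*, the factor of neural crest and Schwann cells, had 5.04, 5.21, 5.10 and 5.10 in SS40, 9.68, 9.70, 9.50 and 9.52 in SS64 and 5.92, 5.88, 5.75 and 6.06 in eMCs. *Erbb3*, a neuregulin receptor, and *Ngfr*, the low affinity neurotrophin receptor, followed it, with -0.89 ± 0.12 in SS40 and 4.56 ± 0.12 in SS64 and -0.86 ± 0.12 in SS40 and 4.39 ± 0.12 in SS64. These 3 genes, chosen after their values were seen, were highest in SS64 of these 3 groups, and the summed intensity of the 15 genes was 786 to 880 in SS40 and 6664 to 6769 in SS64, against 3111 to 3187 in eMCs. Among 30 neuronal genes, *Uchl1*, *Gap43* and *Nefm* were higher in both lines, *Gap43*, a growth cone protein, by 3.18 ± 0.11 in SS40 and 1.24 ± 0.11 in SS64 and *Nefm*, a neurofilament subunit, by 2.01 ± 0.09 in SS40 and 1.41 ± 0.09 in SS64, while the axon guidance receptors *Robo1* and *Epha3* were lower, with -1.23 ± 0.07 in SS40 and -3.53 ± 0.07 in SS64 and -2.90 ± 0.15 in SS40 and -4.68 ± 0.15 in SS64. Against eMCs with *SS18-SSX1*, *Gap43* was lower in the lines, at -0.54 in SS40 and -2.48 in SS64, and *Sox10*, *Erbb3* and *Ngfr* in SS40 were at -2.09, -4.03 and -3.79. With a higher floor *Nefm* in SS64 lost its call, at 0.94.

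**Figure D5:**
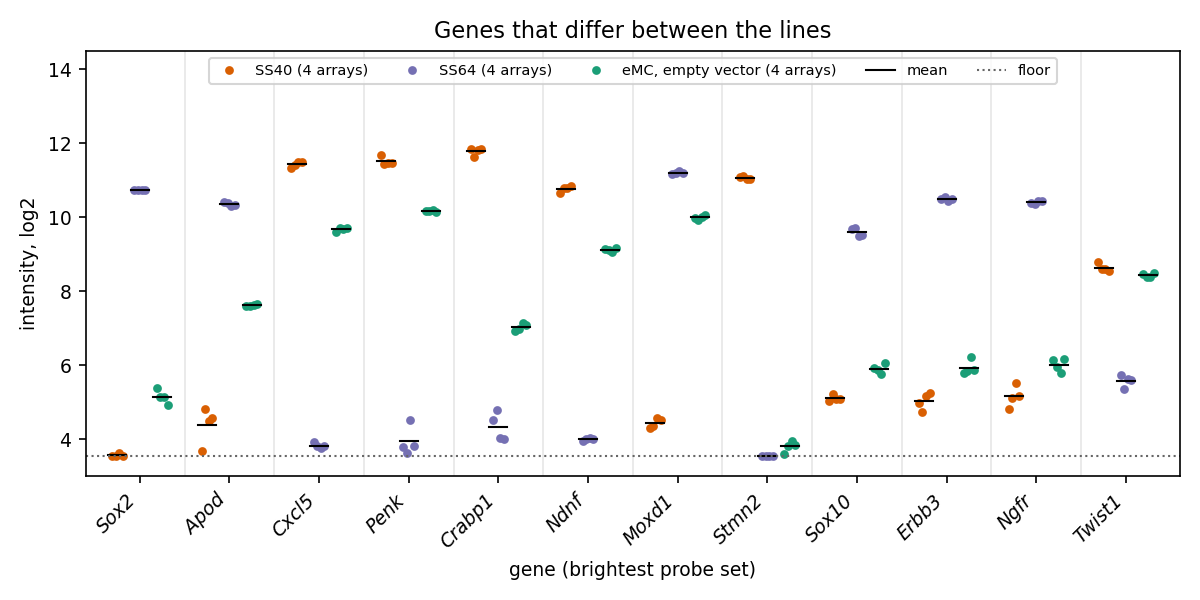
Log2 intensity (vertical axis) of 12 genes that differ between the lines in each of the 4 SS40, 4 SS64 and 4 empty vector eMC arrays, with the group mean as a bar. *Sox2* read 10.73 to 10.74 in SS64, 3.55 to 3.64 in SS40 and 4.93 to 5.38 in eMCs, and *Cxcl5* read 3.76 to 3.92 in SS64 and 11.32 to 11.51 in SS40.

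Genes on the sex chromosomes also set the groups apart. *Xist*, the RNA of the inactive X chromosome, had 5.58, 6.35, 6.12 and 6.53 in SS40, 9.79, 9.82, 9.76 and 9.73 in SS64 and 9.21, 9.13, 9.28 and 9.20 in eMCs. *Eif2s3y*, a translation factor gene on the Y chromosome, was at the floor on all 4 SS64 arrays, at 7.46 to 7.80 in SS40 and at 7.01 to 7.36 in eMCs, and *Uty*, a histone demethylase gene there, was likewise at the floor in SS64 only. *Kdm5d*, another Y-linked demethylase gene, differed by -1.07 ± 0.11 in SS40 and -2.71 ± 0.11 in SS64, the 1 of the list that was called in both lines, and in its brightest probe set only. The other 2 probe sets read 0.34 and -0.015 in SS40 and 0.02 and 0.07 in SS64, and with the mean of the 3 neither line was called, at -0.25 in SS40 and -0.87 in SS64. In SS40 the call was also lost in 1 fit of all 53 arrays (limma adjusted p = 0.146), against eMCs with *SS18-SSX1*, at -0.94, and without SS40 replicate 1, at -0.985. The sex of the embryos and of the tumors of origin is not given in the sources used here, and it cannot be told apart from the group.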

How the data were processed

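Total RNA of cultured mouse cells was measured on Affymetrix GeneChip mouse arrays as biotin-labelled cRNA. The authors deposited 1 linear intensity per probe set and array, already summarized and scaled. MAS5 is named, with no version, in the submitters' processing notes and GeneSpring in the paper, and no value lies below 5.36, so that the background step is not settled and low signals are compressed. All 53 sample columns were used for the floor, and no second scaling was applied.

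Of 45141 probe sets, 104 controls were left out. Of the rest, 28898 had 1 gene symbol in the platform annotation (17097 genes), 551 had several and 15588 had none, and symbols of 28689 probe sets were updated by gene ID. Intensities were floored at 11.7 (the median over arrays of the 20th percentile) and put on the log2 scale. The 38511 probe sets above the floor on at least 4 of the 12 arrays entered 1 limma fit (version 3.58.1, R 4.3.3, moderated with trend) with 3 group means and 1 shared spread. The Benjamini-Hochberg adjustment ran over these probe sets in each contrast, and a gene took its brightest probe set. No pair of arrays in a group was a duplicate, with 13 to 39 probe sets of equal deposited intensity in a pair. Group tests of single values were exact permutations. On simulated data for both lines against eMCs, the fit recovered 99 of 100 probe sets changed by 3 log2 units and 96 of 100 changed by 1.5. It called 0 of 44683 unchanged ones. The changed probe sets all lay well above the floor in eMCs, both lines had the same change, and the noise was normal and independent between arrays. Recovery near the floor, or where the lines differ, was not simulated. Precision rests on 4 arrays a group.

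Members and gene lists were chosen with earlier results of these data known. The genes named were first the 15 largest rises and 15 largest falls in both lines, taken only from genes without overlap between line and eMC arrays. Added to these were up to 4 members of each list in its main direction and 2 in the other, and the genes the study named. The 6 largest opposite differences and the markers used as checks were named too, and not all were printed. Other genes were chosen after their values were seen. Promoters came from RefSeq (GRCm38.p6) and were at hand for 12595 genes tested, chromosome 18 left out. Alternatives were quantile normalization, other floors, filters, probe set rules, fold thresholds, fits and controls, t-tests, a replicate block and leaving out each array.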

Additional observations from a re-analysis of the deposited data

Results flagged for a closer look

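In 36 of 502 sets of 4 arrays, each set being 1 gene in 1 group, 1 array lay far from the other 3 relative to the range of its set. For values free of the floor, chance alone gives about 1 set in 20. In SS40 for *Adipoq* and *Sox2*, and in SS64 for *Matn1*, *Mmp13*, *Bmp2* and *Robo1*, the other 3 arrays lay at the floor. Any value above the floor then counts as far, even 3.56 for *Robo1*, so the 36 cannot be compared with that share. In SS40, the array below its group read, as a log2 level, 10.99 for *Cdkn2a*, 10.43 for *Cdh2*, 9.77 for *Tes*, 4.03 for *Adgre1*, 3.64 for *Cd36*, 11.63 for *Crabp1*, 10.81 for *Prrx1* and 12.27 for *Actb*. In SS40, the array above its group read, as a log2 level, 4.73 for *Sox5*, 3.61 for *Adipoq*, 6.21 for *Epcam*, 5.96 for *Frzb*, 3.64 for *Sox2* and 11.69 for *Penk*. In SS64, the array below its group read, as a log2 level, 8.90 for *Col1a1*, 12.51 for *Prl2c2*, 4.26 for *Myog* and 4.76 for *Fgfr2*. In SS64, the array above its group read, as a log2 level, 3.61 for *Matn1*, 3.58 for *Mmp13*, 9.47 for *Ccng1*, 9.32 for *Igf1*, 3.90 for *Lyz2*, 3.63 for *Bmp2* and 3.56 for *Robo1*. In the eMCs, the array below its group read, as a log2 level, 5.59 for *Cystm1*, 6.46 for *Brca1*, 6.75 for *S100a9*, 7.70 for *Ifit1*, 10.01 for *Fgfr3* and 11.94 for *Ctnnb1*. In the eMCs, the array above its group read, as a log2 level, 12.66 for *Col9a1*, 9.90 for *Thbs2*, 6.64 for *Osbpl3*, 5.81 for *Il6* and 7.22 for *Pcgf5*.

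The difference between the lines passed an adjusted p of 0.05 and a fold change over 2 (limma) in 61 of the 172 genes named, and is given here as SS40 minus SS64 on the log2 scale. Among matrix, bone, cartilage and fat genes it was 1.16 for *Sox9*, -2.14 for *Sox6*, 1.22 for *Dcn*, -2.20 for *Col6a3*, -3.62 for *Postn*, -1.13 for *Col3a1*, 1.16 for *Timp1*, 2.53 for *Omd* and 2.94 for *Fabp4*. Among the large rises and adhesion and neural genes it was -3.63 for *Prl2c2*, -1.21 for *C920009B18Rik*, -1.20 for *Tes*, -2.23 for *Ugt8a*, -1.35 for *Afap1l2*, -1.02 for *Cystm1*, -3.26 for *Mcam*, 1.94 for *Gap43*, 2.29 for *Robo1*, 1.79 for *Epha3* and 7.52 for *Stmn2*. Among imprinted and growth factor genes it was 3.23 for *Cdkn1c*, 1.03 for *Igf2*, -1.22 for *Peg3*, 1.76 for *Rian*, 1.81 for *Dlk1*, -1.09 for *Plagl1*, 2.70 for *Grb10*, -2.52 for *Sgce* and -1.79 for *Igf1*. Among cell cycle and survival genes and oncogenes it was -1.23 for *Cdkn1a*, -1.02 for *Mdm2*, -1.56 for *Bcl2*, -1.15 for *Ccnd1* and 1.75 for *Mycn*. Among interferon, immediate early and cytokine genes it was 1.16 for *Rtp4*, 1.20 for *Ifit1*, 1.59 for *Dusp1*, 2.02 for *Il33* and 7.61 for *Cxcl5*. Among signalling receptors and ligands it was 2.40 for *Fgfr1*, 3.23 for *Bmp2*, 1.19 for *Bmp6*, 2.37 for *Pdgfra*, -5.45 for *Erbb3* and -5.24 for *Ngfr*. Among transcription factors it was -2.001 for *Dlx1*, -1.72 for *Dlx2*, 3.94 for *Hoxc8*, -7.17 for *Sox2*, 3.06 for *Twist1*, 2.21 for *Prrx1* and -4.49 for *Sox10*. Among other secreted and metabolic genes it was -5.98 for *Apod*, 7.57 for *Penk*, 7.45 for *Crabp1*, 6.76 for *Ndnf* and -6.76 for *Moxd1*. Among sex-linked genes it was -3.63 for *Xist*, 4.12 for *Eif2s3y*, 2.38 for *Uty* and 1.63 for *Kdm5d*. Genes of 1 chromosome, of 1 domain or of 1 cell type were not counted as separate evidence, and the causes of these differences were not tested.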

How the results depend on the processing

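The counts moved with the fold threshold. With no fold threshold, 3324 genes were higher and 2598 lower in both lines, 5244 higher and 4090 lower in SS40, 5143 higher and 3827 lower in SS64, and 7876 differed between the lines. With a fold change over 4 these counts were 36 and 373, 181 and 512, 255 and 655, and 680. With eMCs carrying *SS18-SSX1* in place of the empty vector eMCs, 197 genes were higher in both lines (165 of them among the 421) and 905 lower (629 among the 832), and 749 were higher in SS64. Some named genes then had a log2 difference of the other sign, with -0.67 for *Ugt8a* and -0.55 for *Mcam* in SS40, -0.54 and -2.48 for *Gap43* in SS40 and SS64, 1.80 and 0.056 for *Mycn* in SS40 and SS64, and -0.17 for *Igf1*, -0.93 for *Il33* and -0.24 for *Apod* in SS64. Only *Gap43* in SS64 and *Mycn* in SS40 passed the fold threshold. *Mycn* and *Apod* in SS64 no longer differed from these eMCs (limma adjusted p = 0.782 and 0.27). Of 344 differences of named genes, 2 a gene, 28 lost the call against these eMCs with the sign kept. The 9 called differences given above with the other sign come on top of these. With the mean of a gene's probe sets 18 lost the call, in 1 fit of all 53 arrays 6, after quantile normalization 3 and with a higher floor 2. The cause was not tested.

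Under the other alternatives, the counts in both lines stayed within 1.5 times of 421 and 832. They were 355 and 861 after quantile normalization, 327 and 711 with the mean of a gene's probe sets, 544 and 916 with a call by any probe set, 419 and 811 in 1 fit of all 53 arrays, and 420 and 832 by the methods' t-test after Benjamini-Hochberg adjustment. Leaving out 1 array at a time gave 411 to 427 genes higher and 814 to 836 lower in both lines, 1329 to 1382 higher and 1294 to 1325 lower in SS40, 1113 to 1152 higher and 1305 to 1342 lower in SS64, and 1869 to 1913 that differed between the lines. Arrays of the same replicate number did not deviate together (correlations from -0.22 to 0.36), so the numbers were not taken to pair them, and with the replicate block the counts were 421 and 832, the same as without it. *Epyc*, *Dmp1* and *Wif1* were above the floor on the 4 eMC arrays alone and were not tested without any 1 of them, and *Ibsp* was then read from its other probe set, at -3.05 to -3.19 in SS40 and -3.13 to -3.27 in SS64. Signals near the floor limit how large a fall can be measured, and 4428 genes lay within 1 log2 unit of it in eMCs.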
